A study of Homo sapiens with 15 samples.

Results

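The genes described here are 10 components of cytokine signaling through Janus kinases (JAKs) and signal transducers and activators of transcription (STATs), among 19483 genes with a probe on the array. They are the 4 kinases JAK1, JAK2, JAK3, and TYK2, the factors STAT3, STAT5A, STAT5B, and STAT6, the feedback inhibitor SOCS3, and IL6ST, which encodes the receptor chain gp130. Every probe whose transcript accession belongs to one of them was taken, which gave 18 of 34127 probes. A probe entered the tests if the scanner software marked it well above background in each tumor of 1 construct or more. The tests covered 17 member probes of 9 genes, each well above background on all 15 arrays, and the only STAT5A probe did not enter.

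RNA of 15 xenograft tumors was hybridized to single-color Agilent human arrays, with 1 tumor per array. The tumors grew in athymic nude mice from HCT116, a human colon cancer cell line, and were excised at day 35. The cells had been transiently transfected with 1 of 5 constructs, and each construct gave 3 tumors. The study followed the transfected expression in culture over a shorter time than the growth to day 35. The cells had received empty vector, Myc-tagged wild type MOAP-1, the Myc-tagged MOAP-1 changes K264R or K278R, or RASSF1A. MOAP-1 is an adaptor that binds the death regulator Bax, and RASSF1A is a tumor suppressor that binds MOAP-1. All 5 groups share the HCT116 background with its own MOAP1 and RASSF1 genes, and the transfected cells were pools rather than single clones. The age of the mice is not given in the sources used here, nor is it said that each tumor came from a separate mouse, so the p values measure the spread between these tumors.

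Cytokines such as interleukin 6 bring receptor chains together at the cell surface, and the JAKs bound to those chains then phosphorylate each other, the receptor, and a STAT. The phosphorylated STAT dimerizes, enters the nucleus, and binds DNA. In intestinal epithelium the branch through gp130, JAK1, and STAT3 is known for its part in regeneration and in colon tumors, and SOCS3, itself a STAT3 target, turns it off. The arrays measured RNA and not phosphorylation, so they carry no reading of the activity of a kinase or a STAT.

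Levels are given as log2 signal relative to the 75th percentile of the array, so that 0 is the 75th percentile, and are compared between tumors for 1 probe at a time. That percentile ranged from 496.3 to 1402 signal units, 85.11% to 93.15% of spots were well above background, and no spot was saturated. As a check of the labels, the brightest MOAP1 probe lay between -0.53 and -0.13 in the vector tumors and between 0.11 and 0.71 in the tumors of the 3 MOAP-1 constructs. The RASSF1 probe lay between 1.52 and 1.81 in the vector tumors and between 1.55 and 1.59 in the tumors labelled RASSF1A, and so was not higher there. Whether it detects the transfected sequence is not given in the sources used here. The vector tumors and the tumors of the 3 MOAP-1 constructs were hybridized on different slides, so slide and construct cannot be told apart in those comparisons.

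Against vector, the RNA for JAK1, TYK2, and STAT3 was higher in the tumors of all 3 MOAP-1 constructs, by 1.74-fold to 3.88-fold. IL6ST probes moved in both directions. JAK2, JAK3, STAT5B, STAT6, and SOCS3 passed the test in no comparison. A probe was called when its Benjamini-Hochberg adjusted p in limma, over all 30585 kept probes, was below 0.05 and its change was at least 1.5-fold.

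JAK1, TYK2, and STAT3 were the members that rose together, and for this reason the 250 bases before the outermost RefSeq start of each are shown, from the build GRCh38.p14. Capitals mark CCAAT or its reverse complement ATTGG, a short element of many promoters that the factor NF-Y binds.
JAK1 promoter, chr1:65067747-65067996, minus strand: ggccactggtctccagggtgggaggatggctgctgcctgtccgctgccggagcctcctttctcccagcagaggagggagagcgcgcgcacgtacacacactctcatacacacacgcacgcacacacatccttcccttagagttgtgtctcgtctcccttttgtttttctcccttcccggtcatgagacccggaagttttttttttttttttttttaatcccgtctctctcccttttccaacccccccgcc
TYK2 promoter, chr19:10380573-10380822, minus strand: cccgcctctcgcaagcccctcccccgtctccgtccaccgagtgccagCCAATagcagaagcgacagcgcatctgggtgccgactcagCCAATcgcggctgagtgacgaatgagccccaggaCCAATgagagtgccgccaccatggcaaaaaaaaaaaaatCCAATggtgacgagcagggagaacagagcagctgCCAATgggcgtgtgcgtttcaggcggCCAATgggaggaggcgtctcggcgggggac
STAT3 promoter, chr17:42388443-42388692, minus strand: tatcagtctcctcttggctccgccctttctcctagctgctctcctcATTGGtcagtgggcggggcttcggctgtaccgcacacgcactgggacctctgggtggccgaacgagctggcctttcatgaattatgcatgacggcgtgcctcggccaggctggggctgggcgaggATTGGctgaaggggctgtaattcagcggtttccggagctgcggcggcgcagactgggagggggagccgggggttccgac
TYK2 held 6 copies in this stretch, STAT3 held 2, and JAK1 held none. Over 300 bases per start, which add the first 50 bases of the transcript, 34.6% of 35116 promoter windows of all genes held the element on either strand. It was in 4 of the 18 windows of the member genes, those of STAT6 and IL6ST beside those of TYK2 and STAT3. The spaced motif TTCNNNGAA, which STAT dimers bind and which reads the same on both strands, was in 7.66% of all windows and in 0 of the 18 windows of the member genes. A match or its absence describes these letters only.

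Between MOAP-1 and vector, 6 of the 17 member probes were higher and 2 lower, where 9.92% of all kept probes were higher and 6.69% lower. The median change of the member probes was 0.10, against 0.02 over all kept probes. For K264R against vector, 4 were higher and 3 lower, beside 9.25% and 10.2% of all kept probes. For K278R against vector, 4 were higher and 0 lower by limma, beside 7.71% and 3.20%, and 9 member probes had an unadjusted p under 0.05, as had 36.2% of all kept probes. The member medians were 0.09 and 0.11 for the 2 changed forms, against -0.05 and 0.06 over all kept probes. Over the 5 constructs together, 9 of the 17 member probes passed limma's F test at an adjusted p below 0.05, beside 43.4% of all kept probes. The comparisons with vector share the 3 vector tumors.

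The K278R count rested on single tumors. Leaving out vector tumor 2 left 1 call, and leaving out K278R tumor 1, K278R tumor 3, or vector tumor 1 left 2 calls each. Without vector tumor 2 the K264R count was 4, with 1 higher. For MOAP-1 against vector the count was 6 to 8 whichever tumor was left out.

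**Figure D1:**
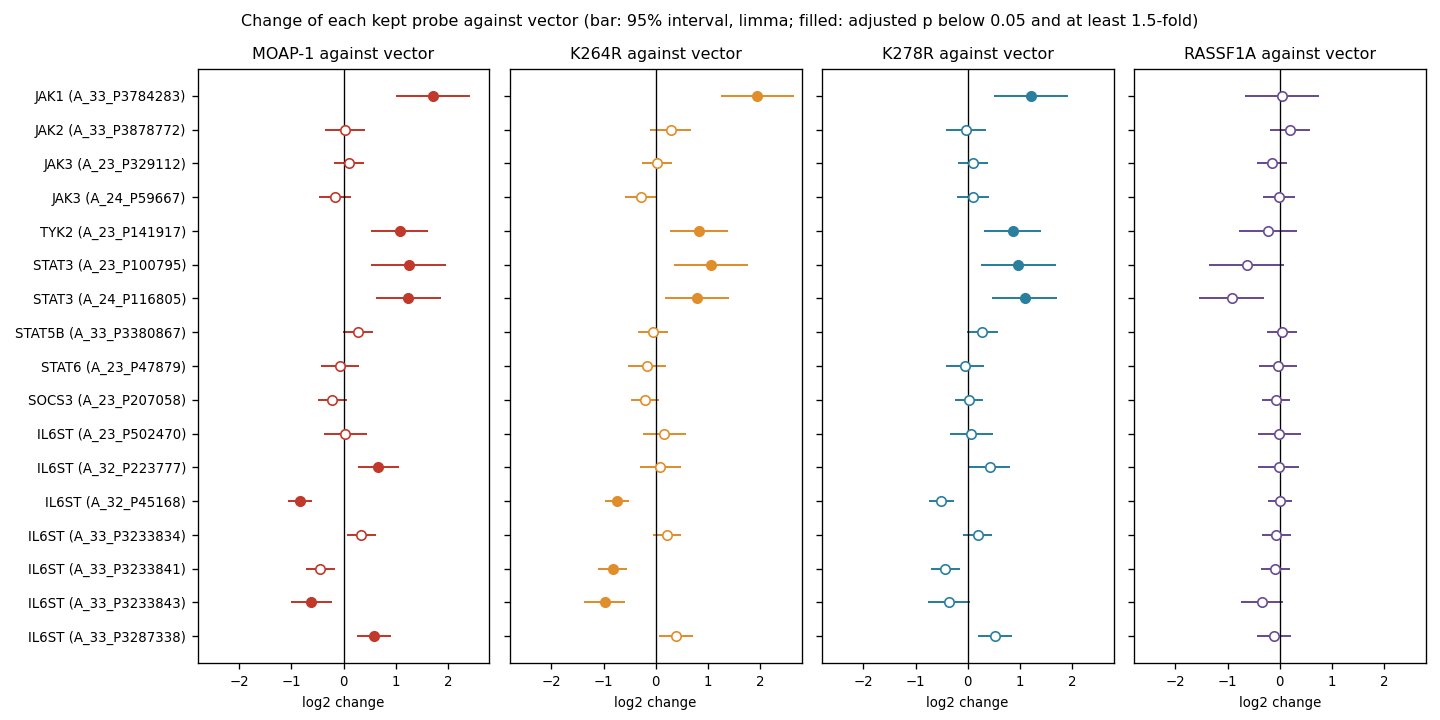
Log2 change of each kept member probe against vector in the 4 other groups, with the 95% interval of limma, and filled points for called probes. JAK1, TYK2, and both STAT3 probes lie right of 0 with filled points for the 3 MOAP-1 constructs, IL6ST probes lie on both sides, and no point is filled for RASSF1A.

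JAK1 encodes the kinase that pairs with gp130 and with the receptors of interferons and of many interleukins. The gene lies at chr1:64833229-65067746 in GRCh38.p14, and the position of its 1 probe, A_33_P3784283, within the transcript is not given in the sources used here, as for all member probes. Its level was -4.17, -4.33, and -4.41 in vector tumors 1, 2, and 3. It was -2.44, -2.50, and -2.83 in the MOAP-1 tumors. It was -2.21, -2.60, and -2.23 in the K264R tumors. Every tumor of these 2 groups was above every vector tumor, and the spread within each group was small beside the gap. The K278R tumors were at -3.45, -3.76, and -2.08, so all 3 lay above the vector tumors while tumor 3 stood far above the other 2. The tumors labelled RASSF1A were at -4.04, -4.52, and -4.21, within and around the range of the vector tumors.

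The JAK1 change against vector was 1.71 for MOAP-1 (standard error 0.32, adjusted p = 0.00179 by limma), or 3.28-fold. It was 1.95 for K264R (adjusted p = 0.000579 by limma) and 1.21 for K278R (adjusted p = 0.0198 by limma), which was 1.19 (adjusted p = 0.0677) without vector tumor 2. In the order of levels, K264R, MOAP-1, and K278R did not differ from their neighbor beyond the spread, with 0.24 less in MOAP-1 than in K264R covered by an interval from -0.93 to 0.45, and RASSF1A and vector differed by 0.05 with an interval from -0.64 to 0.74. JAK1 was a dim probe, at the 31.4th percentile of brightness among kept probes, with a signal of 31.78 to 36.07 units on the vector arrays and 141.7 to 178.2 on the MOAP-1 arrays. Under the normexp background model, which subtracts a fitted local background, its change for MOAP-1 was -0.40, which is 0.13 above the all-probe median of that model. It was 0.70 (adjusted p = 0.0132 by limma) with the spots of extreme local background left out of the model.

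TYK2 encodes the kinase that serves the receptors of type I interferons, interleukin 12, and interleukin 23 and can also bind gp130. The gene lies at chr19:10350533-10380572. Its probe, A_23_P141917, read -4.93, -5.43, and -4.68 in the vector tumors. The MOAP-1 tumors were at -4.27, -3.30, and -4.24, with tumor 2 about 1 log2 unit above the other 2. It read -4.22, -4.22, and -4.11 in the K264R tumors and -4.00, -4.23, and -4.21 in the K278R tumors. All 9 tumors of the 3 constructs were above all 3 vector tumors, and K264R and K278R were tight. The tumors labelled RASSF1A were at -5.49, -5.31, and -4.91, which overlaps vector.

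TYK2 rose against vector by 1.07 for MOAP-1 (standard error 0.25, adjusted p = 0.00621 by limma), by 0.83 for K264R (adjusted p = 0.0198), and by 0.86 for K278R (adjusted p = 0.028). Its signal was 14.84 to 29.93 units on the vector arrays and 49.98 to 81.07 on the MOAP-1 arrays, the 18.3rd percentile of brightness. Under normexp the changes were -1.09, -0.46, and -1.10 for MOAP-1, K264R, and K278R, or -0.56, -0.15, and -0.64 from the all-probe median. With the extreme spots left out they were 0.12 (adjusted p = 0.604 by limma), -0.16, and 0.10, or 0.25, 0.10, and 0.16 from that median, so the direction of TYK2 turned with the background model. The call for K264R was lost without vector tumor 2 (0.62, adjusted p = 0.092) or K264R tumor 3 (0.79, adjusted p = 0.0624), and that for K278R without vector tumor 1 (0.91, adjusted p = 0.0533), vector tumor 2 (0.65, adjusted p = 0.126), K278R tumor 1 (0.79, adjusted p = 0.0754), or K278R tumor 3 (0.89, adjusted p = 0.0617).

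JAK2, the kinase of the erythropoietin, thrombopoietin, and growth hormone receptors, and JAK3, which works with the common gamma chain in lymphocytes, stayed within narrow ranges. The JAK2 probe lay between -3.14 and -3.03 in the vector tumors and between -3.23 and -2.98 in the MOAP-1 tumors. The MOAP-1 difference was 0.03 with an interval from -0.34 to 0.40. JAK2 was most spread in the K264R tumors, at -2.46, -3.20, and -2.77, and the difference there was 0.29 (adjusted p = 0.211 by limma). Both JAK3 probes were brighter. The probe A_23_P329112 differed by 0.10 between MOAP-1 and vector, with an interval from -0.17 to 0.37, and the probe A_24_P59667 by -0.17, with an interval from -0.46 to 0.12. The groups overlapped at the JAK2 probe and at both JAK3 probes in each comparison with vector.

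**Figure D2:**
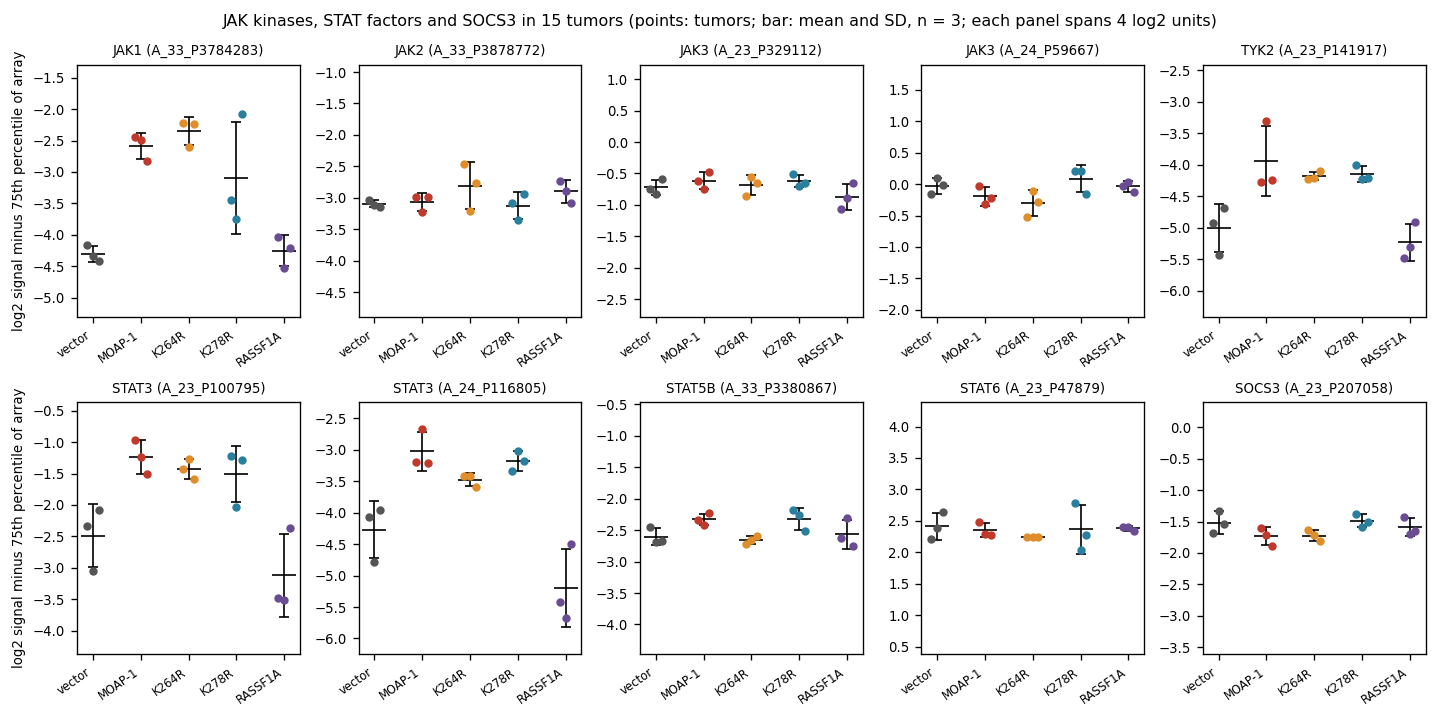
Level of each kept probe of the kinases, STAT factors, and SOCS3 in the 15 tumors, in log2 signal minus the 75th percentile of the array, with the mean and SD of 3 tumors. JAK1, TYK2, and STAT3 are higher in the MOAP-1, K264R, and K278R tumors than in the vector tumors, and the other panels are flat by comparison.

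STAT3 is the factor that gp130 and JAK1 activate. It lies at chr17:42313324-42388442 and had 2 probes. The probe A_23_P100795 is printed at 10 spots, so each tumor gave a repeated reading. The vector tumors read -2.33, -3.05, and -2.08, and the MOAP-1 tumors read -0.97, -1.24, and -1.51. The K264R tumors read -1.42, -1.27, and -1.59, and the K278R tumors read -1.23, -2.03, and -1.28. Each of these 9 tumors was above the highest vector tumor, the second K278R tumor by the least. The tumors labelled RASSF1A read -3.49, -3.51, and -2.37, of which the first 2 were below every vector tumor.

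The spots of 1 array share its RNA and hybridization, so they are no replicates of the tumor. Their SD was 0.05 to 0.08 on the 15 arrays, with 8 spots used on the array of RASSF1A tumor 1 and 10 on each other array, against an SD among the 3 tumors of 0.51 for vector, 0.27 for MOAP-1, 0.16 for K264R, 0.44 for K278R, and 0.65 for RASSF1A. The low vector tumor 2 and the low K278R tumor 2 were read as low by all their spots.

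**Figure D3:**
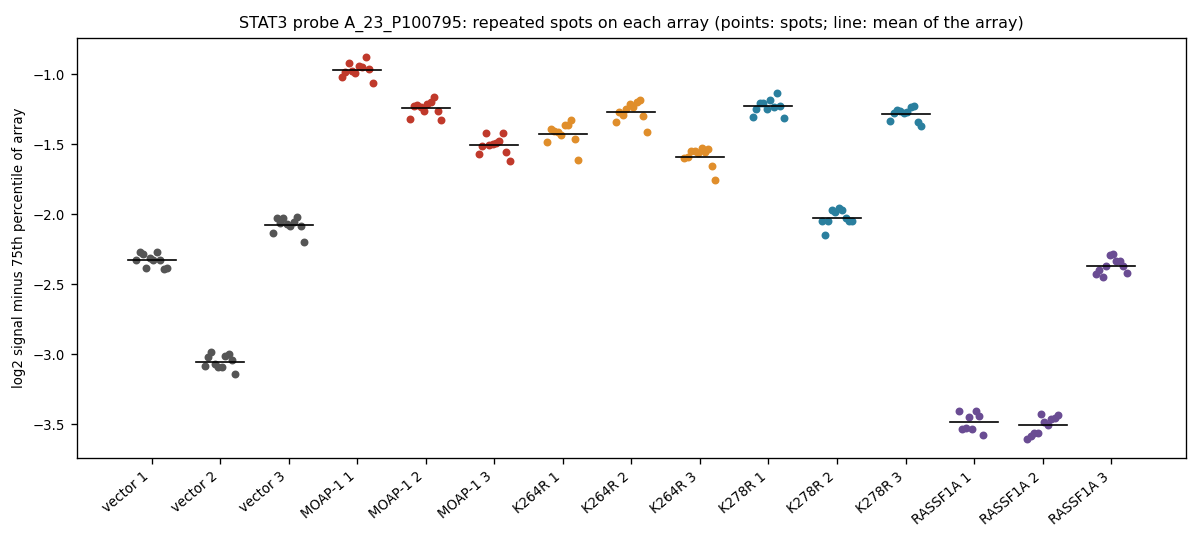
The repeated spots of the STAT3 probe A_23_P100795 on each of the 15 arrays, in log2 signal minus the 75th percentile of the array, with a line at the mean of the array. Spots of 1 array cluster tightly, with an SD of 0.05 to 0.08, while vector tumor 2, K278R tumor 2, and RASSF1A tumors 1 and 2 stand apart from the other tumors of their groups.

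The second STAT3 probe, A_24_P116805, ran parallel to the first, with Pearson's r = 0.933 over the 15 arrays, and was dimmer. The vector tumors read -4.07, -4.79, and -3.96, and the MOAP-1 tumors read -3.20, -2.68, and -3.20. The K264R tumors read -3.41, -3.42, and -3.59, and the K278R tumors read -3.33, -3.03, and -3.18. The tumors labelled RASSF1A read -5.42, -5.67, and -4.49. Again the 9 tumors of the MOAP-1 constructs lay above the vector tumors with no overlap. STAT3 is among the genes that the study itself named from these tumors, so its direction here is not independent evidence. By immunoblot of tumor lysates with MOAP-1, the study reports more STAT3 and STAT5a. In its account of the arrays it also gives JAK1 as not apparently raised and cites the blots for this. Whether it meant JAK1 RNA as well is not clear. Those blots measured protein. In RNA here the JAK1 probe was higher, and the STAT5A probe was not well above background.

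Against vector, STAT3 rose by 1.25 at the 10-spot probe for MOAP-1 (standard error 0.32, adjusted p = 0.0113 by limma), by 1.06 for K264R (adjusted p = 0.022), and by 0.97 for K278R (adjusted p = 0.0484). The dimmer probe rose by 1.25 (standard error 0.28, adjusted p = 0.00512 by limma), 0.80 (adjusted p = 0.04), and 1.09 (adjusted p = 0.0168). Without vector tumor 2 the 10-spot probe was at 0.96 for MOAP-1 (adjusted p = 0.058), 0.77 for K264R (adjusted p = 0.101), and 0.69 for K278R (adjusted p = 0.198). Its K264R call was also lost without K264R tumor 1 (1.06, adjusted p = 0.0573) or 2 (0.98, adjusted p = 0.0638), and its K278R call without K278R tumor 1 (0.83, adjusted p = 0.13), K278R tumor 3 (0.86, adjusted p = 0.138), or vector tumor 1 (1.05, adjusted p = 0.0754).

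At the dimmer STAT3 probe, A_24_P116805, the K264R call held only when vector tumor 3 was the tumor left out, with 0.54 (adjusted p = 0.172 by limma) without vector tumor 2 and 0.77 to 0.90 without vector tumor 1 or any K264R tumor. The K278R call at that probe was lost without vector tumor 2 (0.84, adjusted p = 0.0821). Under normexp the 10-spot probe changed by 0.24 for MOAP-1, 0.77 above the all-probe median, and by 0.90 (adjusted p = 0.00549 by limma) with the extreme spots left out. The dimmer probe changed by -0.72, -0.19 from that median, and by 0.36 (adjusted p = 0.12).

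STAT5A and STAT5B are near-identical factors that prolactin, growth hormone, and interleukin 2 activate, and STAT6 carries the signal of interleukin 4 and interleukin 13. The STAT5A probe was not well above background on any of the 15 arrays, where its signal was 1.36 to 3.86 units, so no fold is given. The probe of STAT5B, A_33_P3380867, read -2.45, -2.69, and -2.67 with vector and -2.35, -2.41, and -2.23 with MOAP-1. These did not overlap, but the difference of 0.27 had an interval from -0.0013 to 0.54 and did not pass (adjusted p = 0.12 by limma). STAT6 was the brightest member, at the 91.7th percentile of brightness, and lay between 2.03 and 2.79 in all 15 tumors. Its difference between MOAP-1 and vector was -0.06, with an interval from -0.41 to 0.28.

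IL6ST encodes gp130, the chain that the receptors of interleukin 6, interleukin 11, leukemia inhibitory factor, and oncostatin M share. It lies at chr5:55935095-55994963, and 7 probes on 2 transcript accessions measured it. Between MOAP-1 and vector, 2 probes passed as higher, 2 passed as lower, and 3 were not called, so the gene has no single direction on this array.

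The brightest IL6ST probe, A_32_P45168, was at the 77.5th percentile of brightness and lower in the tumors of the MOAP-1 constructs. The vector tumors read 0.80, 0.83, and 0.58, and the MOAP-1 tumors read -0.20, -0.06, and -0.05. The K264R tumors read -0.03, 0.01, and 0.01, the K278R tumors 0.22, 0.13, and 0.35, and the tumors labelled RASSF1A 0.83, 0.60, and 0.79. The MOAP-1, K264R, and K278R tumors were all below the vector tumors, and those labelled RASSF1A fell in the same range as vector. The probe fell by 0.84 for MOAP-1 (standard error 0.10, adjusted p = 0.000203 by limma) and by 0.74 for K264R (adjusted p = 0.00019). It differed by -0.51 for K278R (adjusted p = 0.00569), which is under 1.5-fold. It was the member probe that kept its MOAP-1 call under normexp, at -0.63 (adjusted p = 0.0331 by limma). That value is only -0.10 from the all-probe median of that model. With the extreme spots left out it was at -0.74 (adjusted p = 0.000265), or -0.61 from that median.

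A second IL6ST probe of middle brightness, A_33_P3233841, moved the same way, by -0.45 for MOAP-1 (adjusted p = 0.0134 by limma, under 1.5-fold), by -0.82 for K264R (adjusted p = 0.000293), and by -0.43 for K278R. The dim probe A_33_P3233843 fell by 0.62 for MOAP-1 (adjusted p = 0.0179) and by 0.98 for K264R (adjusted p = 0.00104). Its MOAP-1 call was lost without MOAP-1 tumor 3 (-0.47), vector tumor 1 (-0.51), or vector tumor 2 (-0.62, adjusted p = 0.0523).

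The other dim IL6ST probes did not fall. The probe A_32_P223777 rose by 0.67 for MOAP-1 (adjusted p = 0.0111 by limma), from -4.63, -5.02, and -5.03 in the vector tumors to -4.63, -3.77, and -4.27, so that MOAP-1 tumor 1 was level with the highest vector tumor to 2 decimals. Without MOAP-1 tumor 2 it was at 0.44, under 1.5-fold. The probe A_33_P3287338 rose by 0.59 (adjusted p = 0.00895), which is 1.5-fold and just past the threshold, and was under it without MOAP-1 tumor 2 (0.51), vector tumor 1 (0.58), or vector tumor 3 (0.53). The probes A_23_P502470 and A_33_P3233834 differed by 0.04 and 0.34 and were not called. Under normexp with the extreme spots left out, A_32_P223777 was at -0.044 and A_33_P3287338 at 0.066, so the rises did not hold there.

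**Figure D4:**
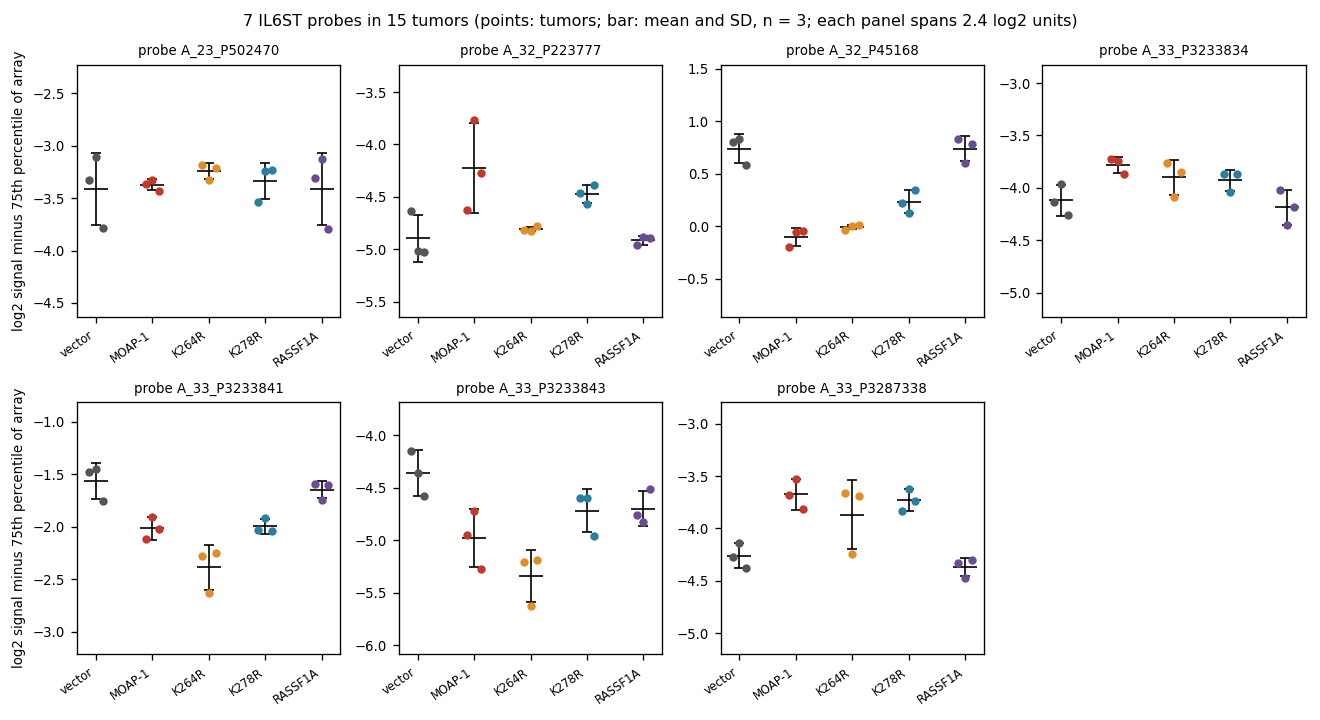
Level of the 7 IL6ST probes in the 15 tumors, in log2 signal minus the 75th percentile of the array, with the mean and SD of 3 tumors. The bright probe A_32_P45168 and the probes A_33_P3233841 and A_33_P3233843 are lower in the MOAP-1 and K264R tumors than in the vector tumors, while A_32_P223777 and A_33_P3287338 are higher in the MOAP-1 tumors.

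SOCS3 encodes the inhibitor that binds gp130 and JAKs and ends the signal. Its probe, A_23_P207058, read -1.69, -1.33, and -1.54 with vector, -1.61, -1.72, and -1.88 with MOAP-1, -1.64, -1.71, and -1.82 with K264R, and -1.38, -1.59, and -1.51 with K278R. Each group overlapped the vector tumors. The difference was -0.22 for MOAP-1 (interval from -0.47 to 0.04), -0.20 for K264R (interval from -0.46 to 0.05), and 0.03 for K278R (interval from -0.23 to 0.28), none of which passed.

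The next comparison asks whether the changed lysines of MOAP-1 made a difference to these genes. The MOAP-1 and K264R tumors share no slide, so slide and construct cannot be told apart between them. Between MOAP-1 and K264R, 0 of the 17 member probes were called by limma, beside 0.00327% of all kept probes, and 3 had an unadjusted p under 0.05, as had 10.9% of all kept probes. Between MOAP-1 and K278R, 0 were called by limma, beside 0% of all kept probes, and 1 had an unadjusted p under 0.05, as had 9.22% of all kept probes. The intervals were wide for the genes that had risen. For JAK1 the difference from K278R was 0.51, with an interval from -0.18 to 1.19, and without K278R tumor 3 it was 1.01 (adjusted p = 0.0284 by limma). For STAT3 at the 10-spot probe it was 0.19 from K264R, with an interval from -0.51 to 0.89, and 0.28 from K278R, with an interval from -0.42 to 0.97. On the slide that MOAP-1 tumor 2 shared with the 3 K278R tumors, that tumor was above their mean by 0.60 for JAK1, 0.85 for TYK2, and 0.27 for STAT3 at the 10-spot probe.

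In the tumors labelled RASSF1A, 0 of the 17 member probes were called against vector by limma, beside 0% of all kept probes, and 1 had an unadjusted p under 0.05, as had 12.1% of all kept probes. That probe was A_24_P116805 of STAT3, at -0.92 (interval from -1.52 to -0.32, adjusted p = 0.341 by limma). Without RASSF1A tumor 3 it was at -1.27 (adjusted p = 0.0116). The 10-spot STAT3 probe was at -0.64, with an interval from -1.33 to 0.06. RASSF1A tumor 3 was hybridized on the slide of the vector tumors and tumors 1 and 2 on another slide, scanned on a later day. Tumor 3 differed from the vector mean on its slide by 0.12 and -0.22 at the 2 STAT3 probes, so the low STAT3 values came from the tumors on the later slide, and slide and tumor cannot be told apart there.

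Between MOAP-1 and the tumors labelled RASSF1A, 6 member probes were higher and 1 lower, beside 13.0% and 8.14% of all kept probes. STAT3 differed most, by 1.88 at the 10-spot probe (adjusted p = 0.000647 by limma) and 2.17 at the other. JAK1 differed by 1.67 and TYK2 by 1.30, and the bright IL6ST probe by -0.84. Against RASSF1A tumor 3 alone, with both tumors of the later scan left out, 3 of the 7 calls were left, and the 10-spot STAT3 probe was at 1.13 (adjusted p = 0.0767).

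Across the 15 arrays the level of JAK1 went with that of TYK2 (Pearson's r = 0.759) and of STAT3 (r = 0.81), and TYK2 with STAT3 (r = 0.893), where the 3 pairs share the arrays, their slides, and the difference between constructs. Among 17953 other genes at their brightest kept probe, the 5 whose pattern was most like JAK1 were DERL1 (r = 0.994), TOMM70, SMAD2, ACAP2, and PPP2R2A (r = 0.988). The 5 most like STAT3 were CPNE2 (r = 0.995), LRRC23, RPN1, MAML1, and P4HTM (r = 0.988). These values describe the pattern over 15 tumors in 5 groups and carry no test.

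STAT4 and STAT2 are related factors outside the members. Between MOAP-1 and vector, STAT4, the factor of interleukin 12, differed by 0.37 (adjusted p = 0.019 by limma), which is under 1.5-fold. STAT2, a factor of type I interferon signaling, differed by 0.37 (adjusted p = 0.0946) and was higher for K278R, by 0.67 (adjusted p = 0.0136).

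For the other genes of the pathway, each gene was taken at its brightest kept probe, where 9.18% of 18016 genes were higher and 5.83% lower between MOAP-1 and vector. Of 18 kept cytokine ligands, 0 were higher and 2 were lower, IL21 by 1.00 and CTF1, or cardiotrophin 1, by 0.62, at a list median of -0.06 against 0.01 over all genes. Of 34 kept receptor chains, 4 were higher and 3 lower, at a median of -0.01. IL10RB, which the receptors of interleukin 10 and interleukin 22 share, rose by 0.86 (adjusted p = 0.00445 by limma). CRLF2, a receptor chain of thymic stromal lymphopoietin, fell by 0.79, and CSF3R, the receptor of granulocyte colony-stimulating factor, fell by 0.73. IL2RA, the alpha chain of the interleukin 2 receptor, was the other one called lower, but its probe was well above background on 2 of the 3 vector arrays and 0 of the 3 MOAP-1 arrays, so no fold is given.

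Of 20 kept negative regulators, CISH, a SOCS family gene that STAT5 induces, fell by 1.27 (adjusted p = 0.0343 by limma), PTPRC, the phosphatase CD45 of leukocytes, rose by 0.72, and 18 were not called. Of 21 kept STAT3 target genes, MCL1, an inhibitor of apoptosis, rose by 1.66 (adjusted p = 0.00104), CEBPD, a transcription factor of the acute phase, fell by 1.30 (adjusted p = 0.000392), and 19 were not called, at a median of 0.13. Of 12 kept STAT5 and STAT6 target genes, 0 were called in either direction by limma, at a median of 0.30.

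MCL1 followed the members that rose. It read -1.53, -2.37, and -1.18 with vector and 0.08, 0.03, and -0.22 with MOAP-1, and it also rose for K264R, by 1.65, and for K278R, by 1.19. CISH read 1.25, 1.12, and 1.54 with vector and 0.21, 0.28, and -0.41 with MOAP-1, with no overlap. In the tumors labelled RASSF1A it read -1.17, -0.97, and 0.74, also below every vector tumor, though it was not called there. For K264R against vector, 9.46% of all genes were higher and 8.93% lower, and the STAT3 targets gave 1 and 1 of 21. For K278R the shares were 6.60% and 2.96%, and the STAT3 targets gave 2 and 1. Between MOAP-1 and the tumors labelled RASSF1A, where 12.4% of all genes were higher and 7.43% lower, 8 of the 21 STAT3 targets were higher and 1 lower, at a median of 0.19 against -0.03 over all genes. MCL1 differed there by 2.36 and CEBPD by -1.72. Of the 12 STAT5 and STAT6 targets, 3 were higher and 0 lower by limma, at a median of 0.40. The lists were not tested as sets, and the 2 groups share no slide. RASSF1A tumors 1 and 2 were on the later slide, and these counts were not repeated without them. Several STAT3 targets read lower in those 2 tumors than in RASSF1A tumor 3, while others did not. MCL1 was among the lower ones, at -2.24, -2.94, and -1.99 in RASSF1A tumors 1, 2, and 3.

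**Figure D5:**
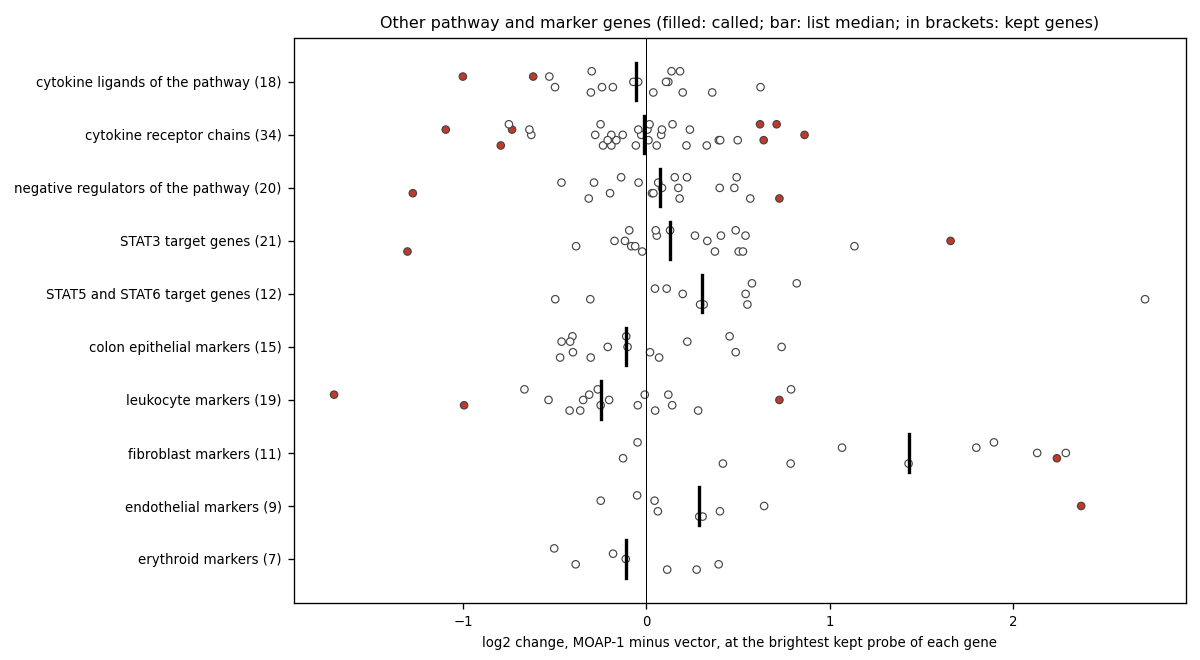
Log2 change between MOAP-1 and vector for each kept gene of the other pathway lists and the marker lists, at its brightest kept probe, with filled points for called genes and a bar at the list median. The medians of the pathway lists lie between -0.06 and 0.30, while the fibroblast markers have a median of 1.43 with 1 gene called.

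A tumor holds cells other than HCT116, which in these xenografts are cells of the mouse. The probes are human, and how far they read mouse RNA is not given in the sources used here. Values of the leukocyte, fibroblast, endothelial, and erythroid markers are therefore no measure of how many such cells a tumor held. In bulk RNA fewer cells of a type and less RNA per cell cannot be told apart. Of the 15 colon epithelial markers, 0 were called between MOAP-1 and vector by limma, and their summed level on the linear scale was 331.3 to 391.6 in the vector tumors and 267.3 to 318 in the MOAP-1 tumors. Of 19 kept leukocyte markers, 1 was higher (PTPRC, also counted among the negative regulators) and 2 lower, TYROBP by 1.70 and NKG7 by 0.99, and the sum was 36.83 to 44.18 in the vector tumors, 26.74 to 33.72 in the MOAP-1 tumors, 25.89 to 29.14 in the K264R tumors, 31.7 to 36.35 in the K278R tumors, and 41.78 to 47.61 in those labelled RASSF1A. For each of the 3 MOAP-1 constructs the leukocyte sum was below the vector range, for K278R by little, while PTPRC was higher for MOAP-1. Bright probes weigh most in such a sum, with CD79A at 4.26, 4.41, and 4.09 in the vector tumors. The colon epithelial sum was also below the vector range in the MOAP-1 tumors and, at 261.4 to 280, in the K264R tumors. It was 228.8 to 337.5 in the K278R tumors and 288.9 to 331.7 in those labelled RASSF1A, which overlap vector. The part of either cell type in the member results was not tested.

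Of 11 kept fibroblast markers, 1 was called, COL1A1 with a rise of 2.24 (adjusted p = 0.0406 by limma), at a list median of 1.43 for MOAP-1, 0.21 for K264R, 1.34 for K278R, and 0.59 for RASSF1A. Their sum was 9.97 to 30.2 in the vector tumors and 14.65 to 57.57 in the MOAP-1 tumors. In the K264R tumors it was 12 to 29.85, and the part of these cells in the member results was not tested. Of 9 kept endothelial markers, TIE1 rose by 2.37, with its probe well above background on 1 of the 3 vector arrays and 3 of the 3 MOAP-1 arrays, and 8 were not called, and of 7 kept erythroid markers 0 were called by limma, with list medians of 0.29 and -0.11.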

How the data were processed

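The authors deposited the Agilent Feature Extraction output of each of 15 arrays, and its processed signal is an intensity corrected for background within each array, not yet normalized between arrays. The file header names version 10.5.1.1 and the submitters' processing notes name 9.1. A deposited series table holds GeneSpring log2 values and served as an alternative only. Here 43118 spots other than controls were taken, outlier spots were left out, and log2 signals were set to the 75th percentile of each array. The spots of a probe were averaged, which gave 34127 probes, of which 25422 (74.5%) took a gene name from RefSeq through their accession. Of these probes, 30585 were kept, and 112 of them lacked a value on some array.

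Construct was the only term in the fit of all 15 arrays with limma 3.58.1 in R 4.3.3 (lmFit, eBayes), checked on simulated data. Replicates are 3 tumors per construct, and with no counting depth on arrays their number sets the precision. Alternatives were another background model (normexp with offset 50 on median signals and local backgrounds, also with 21 spots of extreme local background left out), quantile normalization, the deposited log2 table, other filters, a block for slide or for replicate number, only the arrays compared, no later scan, the methods' t-test, and each tumor left out. Every member probe is named. From each other list, at most 4 called genes with the largest change between MOAP-1 and vector were named, with STAT2, STAT4, and the 5 genes most correlated with JAK1 and with STAT3. Some genes that this rule covers are not reported here. The members and lists were chosen with earlier results of these data known. The same-numbered tumors of different constructs were not paired, since their deviations from the group means correlated between -0.25 and 0.37. Figures were drawn with matplotlib.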

Additional observations from a re-analysis of the deposited data

Results flagged for a closer look

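For 7 member probes the effect against the shared vector tumors differed between MOAP-1 and the tumors labelled RASSF1A. This was by limma's direct contrast of the 2 groups with 3 tumors each, with no overlap between the groups. Over all kept probes 13.0% were higher and 8.14% lower in this contrast, and the share without overlap was not computed. The differences on the log2 scale were 1.67 for JAK1 (adjusted p = 0.00135), 1.30 for TYK2 (adjusted p = 0.00132), and 1.88 and 2.17 for the STAT3 probes A_23_P100795 and A_24_P116805 (adjusted p = 0.000647 and 9.97e-05). They were 0.69, -0.84, and 0.69 for the IL6ST probes A_32_P223777, A_32_P45168, and A_33_P3287338 (adjusted p = 0.00695, 6.48e-05, and 0.00231). The 2 groups share no slide. Without the later scan day, which leaves 1 RASSF1A tumor taken to vary like the other groups, the limma call was lost for TYK2 (0.97, adjusted p = 0.0979), STAT3 A_23_P100795 (1.13, adjusted p = 0.0767), and IL6ST A_32_P223777 (0.67, adjusted p = 0.124) and A_33_P3287338 (0.63, adjusted p = 0.0855). Under normexp the calls were lost for JAK1 (0.77), TYK2 (0.29), STAT3 A_24_P116805 (0.75), and IL6ST A_32_P223777 (0.074) and A_33_P3287338 (0.21), and those of TYK2 and these 2 IL6ST probes also with the extreme spots left out. Under quantile normalization the 2 IL6ST probes were at 0.56 and 0.53, under 1.5-fold. By the methods' t-test after Benjamini-Hochberg adjustment TYK2 and A_32_P223777 were not called. Without MOAP-1 tumor 2, A_32_P223777 was at 0.46, under 1.5-fold.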

How the results depend on the processing

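For member probes, 1985 of 2091 values under an alternative kept their direction and their side of the threshold or were called in neither setting. Of these 1985, 1638 belonged to results not called in the main fit, 146 of them with a changed sign, and 347 to called results. Among values of called results, 89 lost the call and 13 turned sign, 4 of these still on the called side of the all-probe median of that setting. A call was gained by 4 values. The normexp background model moved results most. It shifted the median change of all probes against vector to -0.53 for MOAP-1, -0.31 for K264R, and -0.46 for K278R, and to -0.13, -0.26, and -0.06 with the extreme spots left out. Under normexp the member calls were 1 for MOAP-1, 0 for K264R, and 0 for K278R against vector, and 2 for MOAP-1 against RASSF1A. The calls over all kept probes fell as well. They went from 5079 to 522 for MOAP-1, from 5949 to 914 for K264R, and from 3337 to 1 for K278R against vector. For MOAP-1 against RASSF1A they went from 6481 to 2260. With the extreme spots left out the member calls were 3 for MOAP-1, 1 for K278R, and 4 for MOAP-1 against RASSF1A. Over all kept probes they were 2631, 1326, and 3810 there. The probes that turned sign under normexp were, for MOAP-1 against vector, JAK1 (-0.40), TYK2 (-1.09), STAT3 A_24_P116805 (-0.72), and IL6ST A_32_P223777 (-1.25) and A_33_P3287338 (-0.97). For K264R they were TYK2 (-0.46) and STAT3 A_24_P116805 (-0.36), and for K278R they were JAK1 (-0.54), TYK2 (-1.10), and STAT3 A_24_P116805 (-0.74). With the extreme spots left out, IL6ST A_32_P223777 for MOAP-1 (-0.044) and TYK2 (-0.16) and STAT3 A_24_P116805 (-0.063) for K264R turned sign. These probes are dim, and the cause was not tested.

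The methods' t-test after Benjamini-Hochberg adjustment gave 3 calls for MOAP-1, 4 for K264R, and 0 for K278R against vector, and unadjusted it gave 2 for K278R. Shares over all kept probes were not computed for this t-test or for the fits that left tumors out. By that adjusted t-test the MOAP-1 calls lost included TYK2 (adjusted p = 0.131) and STAT3 A_23_P100795 (adjusted p = 0.0771) and A_24_P116805 (adjusted p = 0.0703). The IL6ST probes A_32_P223777 and A_33_P3233843 also lost theirs. For K264R the calls of TYK2 and both STAT3 probes were lost. The K278R count was also 1 under quantile normalization and 1 with only the arrays compared. Without the later scan day MOAP-1 against RASSF1A gave 3 calls. Leaving out each tumor in turn gave 6 to 8 calls for MOAP-1, 4 to 7 for K264R, 1 to 4 for K278R, and 0 to 1 for RASSF1A against vector, and 0 to 1 for MOAP-1 against K278R, 6 to 7 against RASSF1A, and 0 against K264R. Of the probes called between MOAP-1 and vector, 59.7% were higher, against 48.8% under quantile normalization, 49.2% under normexp, and 45.1% with the extreme spots left out. For K264R the share was 47.6%, and 28.8% and 16.2% under the 2 normexp settings. For K278R it was 70.7%, and 51.3% under quantile normalization and 49.8% with the extreme spots left out, while normexp gave 1 call, which was lower. For MOAP-1 against RASSF1A it was 61.6%, and 49.9% under normexp. With the replicate number as a replicate block the member counts were the same in all 7 comparisons (8 for MOAP-1, 7 for K264R, and 4 for K278R against vector). The consensus correlation within slides was -0.08. Most slides held 1 construct, and this correlation is taken after the construct term, so it does not measure slide differences between constructs.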
